A study of Mus musculus with 4 samples.

Results

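The 28 genes described here encode enzymes of cholesterol synthesis, the regulators of the transcription factor SREBP2 and proteins that move or store sterol. They were chosen by symbol, from a list of pathway genes, out of 53465 gene rows of a table of read counts, and all 28 had enough reads to be tested among 13664 genes. These genes, and the other lists and motifs below, were chosen with earlier results of these data known. Shares set beside those of all genes are therefore description only. The cells are B16, a mouse melanoma line. The 2 control libraries are labelled as control with no further detail. The 2 EM-plasma libraries are labelled as cells given plasma treated with exosome-mimetic nanovesicles, with 4 h in their titles. Whether the control cells received plasma, nanovesicles or vehicle is not given in the sources used here, nor is the kind of plasma or the B16 subline. Poly(A) RNA was sequenced, and the libraries hold 46295133 to 49367932 counted reads. No label says that replicates were grown as separate cultures, and the p-values then reflect the variation among these 4 libraries alone, which can be technical.

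The labelled cell type matched its markers. All 7 melanocyte lineage genes on a marker list were tested, and together they held 1.10% to 1.13% of the reads of a library. Of 6 leukocyte markers 4 had no read in any library, as did 4 of 6 red cell and platelet markers and 2 of 3 endothelial markers. The leukocyte list summed to 41 to 81 reads per library, the red cell and platelet list to 0 to 2, the endothelial list to 5 to 8 and the hepatocyte list to 56 to 97. The fibroblast list, which holds collagen genes that other cells also express, summed to 1307 to 1442 reads.

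Cholesterol is built from acetyl-CoA. Thiolases and HMG-CoA synthase start a chain that runs through mevalonate to isoprenoid diphosphates, squalene synthase commits farnesyl diphosphate to sterols, and a series of enzymes in the endoplasmic reticulum (ER) then turns squalene into lanosterol and cholesterol. SREBP2, encoded by Srebf2, is made as a membrane protein of the ER. When ER sterol is low, SCAP escorts it to the Golgi, where proteases release the part that enters the nucleus and raises transcription of the synthesis genes, and when sterol is ample the INSIG proteins hold SCAP and SREBP2 in the ER. The listed genes do not cover every step of the pathway.

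In EM-plasma-treated cells 13 of the 28 genes were lower than in controls and 0 were higher, at an adjusted p below 0.05 (edgeR's quasi-likelihood F test, Benjamini-Hochberg over all tested genes). Among all tested genes 2.88% were called lower and 3.34% higher. At an unadjusted p below 0.05, 18 of the 28 were lower and 0 higher, where 9.84% of all tested genes were lower and 9.70% higher. DESeq2 called 11 of the 28 lower and 0 higher, where 2.33% of the 12692 genes it gave an adjusted p were called lower. The changes were small. The median log2 fold change over the 28 genes was -0.18, against -0.0027 over all tested genes, and among the called genes Nsdhl changed most and fell by 21.4%. Both EM-plasma libraries lay below both controls for 20 of the 28 genes, against 24.8% of all tested genes, and 26 of 28 log2 fold changes were below 0, against 50.9% of all tested genes. In bulk RNA, less transcript per cell and fewer cells making it cannot be told apart.

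**Figure D1:**
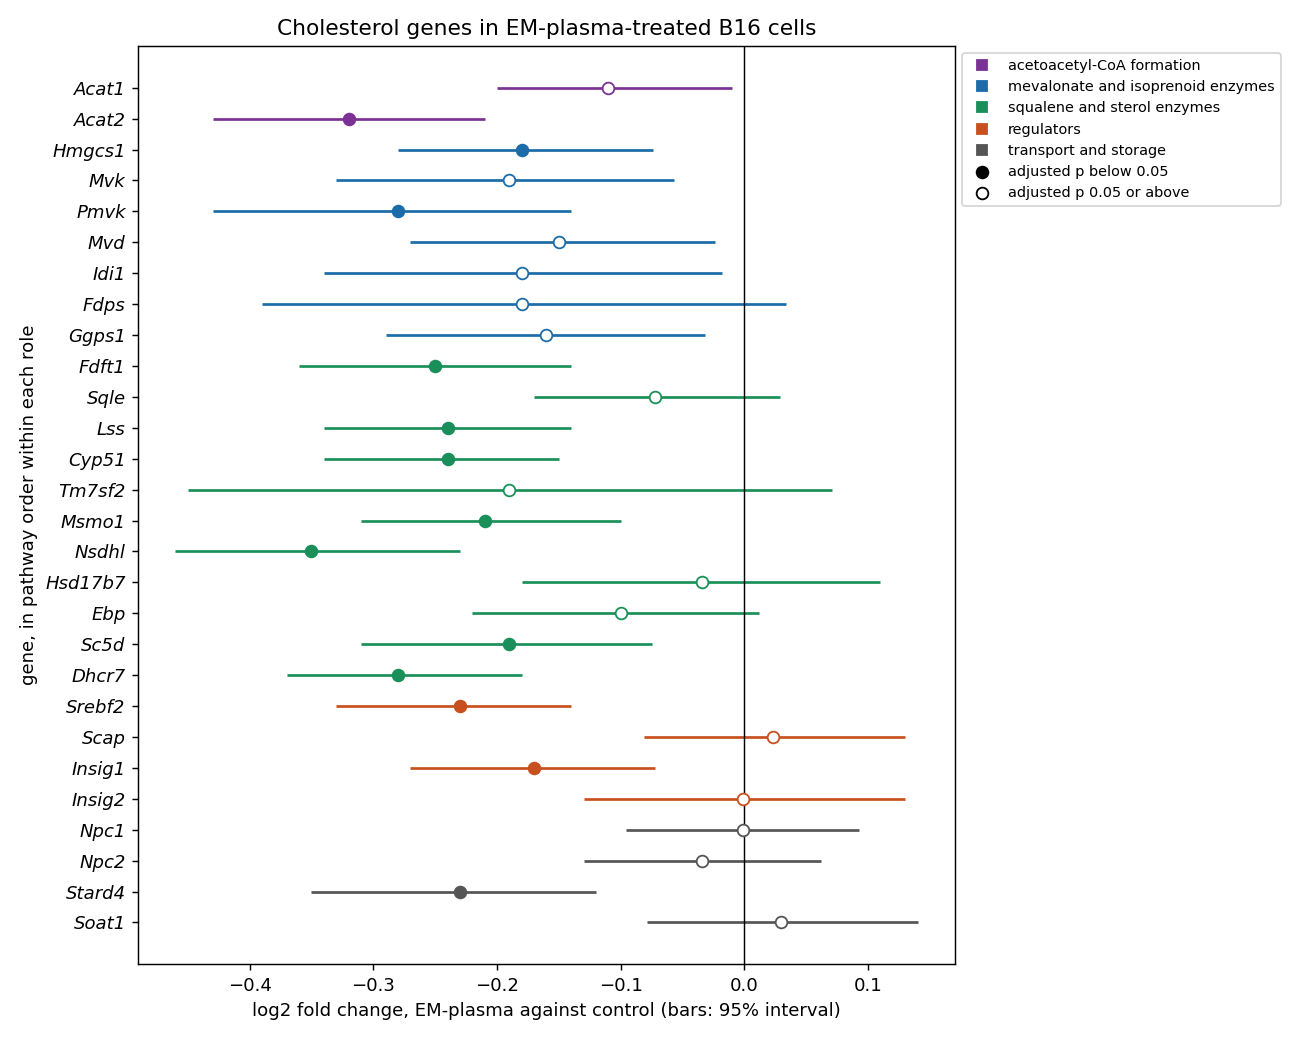
Log2 fold change of each of the 28 genes, EM-plasma (n = 2) against control (n = 2), with 95% intervals from edgeR. Filled points passed the test, and these are 13 genes that all lie left of 0. The enzyme Hsd17b7 lies near 0, as do Scap, Insig2, Npc1, Npc2 and Soat1.

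The fall was spread along the enzymes and uneven among the other genes. All 20 enzyme genes had a log2 fold change below 0, with a median of -0.19, and 10 of them passed the test. Of the 4 regulators 2 passed, with a median of -0.087, and of the 4 genes of sterol transport and storage 1 passed, with a median of -0.018. The summed level of the 20 enzyme transcripts was 1885.4 and 1919.9 CPM (reads per 1000000 of the TMM-normalised total of the tested genes) in control 1 and 2. In EM-plasma 1 and 2 it was 1652.2 and 1657.9 CPM. The means differed by -13.0%, and each treated library lay below each control. The 4 regulators summed to 746 and 719 CPM in the controls and to 675 and 657 CPM in the treated libraries, a change of -9.13%. The 4 transport and storage genes summed to 557 and 571 CPM in the controls and to 542 and 553 CPM in the treated libraries, a change of -2.82%. For these sums, too, each treated library lay below each control.

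The 250 bases before the RefSeq start (build GRCm38.p6) are shown for the 6 called genes that hold the core letters of a sterol regulatory element, the site that SREBP proteins bind. Each is written 5′ to 3′ on the strand of its gene. Capitals mark 2 motifs, found on either strand: the core ACNCCAC (read as GTGGNGT on the other strand) and the NF-Y box CCAAT (read as ATTGG), the site of a factor known to work beside SREBP. These marked stretches do not overlap in the 6 windows.
Nsdhl, chrX:72918271-72918520, plus strand: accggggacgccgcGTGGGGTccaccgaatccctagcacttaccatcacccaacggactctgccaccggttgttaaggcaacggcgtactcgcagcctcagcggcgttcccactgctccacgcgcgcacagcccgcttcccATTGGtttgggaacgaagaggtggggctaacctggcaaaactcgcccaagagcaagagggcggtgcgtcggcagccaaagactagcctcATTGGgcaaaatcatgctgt
Acat2, chr17:12960726-12960975, minus strand: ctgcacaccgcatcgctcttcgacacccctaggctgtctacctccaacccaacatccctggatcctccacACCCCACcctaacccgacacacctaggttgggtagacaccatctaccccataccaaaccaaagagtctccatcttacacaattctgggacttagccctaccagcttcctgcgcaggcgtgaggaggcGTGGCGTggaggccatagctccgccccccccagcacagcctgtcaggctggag
Cyp51, chr5:4104698-4104947, minus strand: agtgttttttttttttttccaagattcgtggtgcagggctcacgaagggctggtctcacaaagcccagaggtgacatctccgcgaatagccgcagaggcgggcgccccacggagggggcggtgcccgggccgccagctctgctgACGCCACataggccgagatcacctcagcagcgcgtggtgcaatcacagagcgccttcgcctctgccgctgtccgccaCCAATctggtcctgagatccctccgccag
Srebf2, chr15:82147019-82147268, plus strand: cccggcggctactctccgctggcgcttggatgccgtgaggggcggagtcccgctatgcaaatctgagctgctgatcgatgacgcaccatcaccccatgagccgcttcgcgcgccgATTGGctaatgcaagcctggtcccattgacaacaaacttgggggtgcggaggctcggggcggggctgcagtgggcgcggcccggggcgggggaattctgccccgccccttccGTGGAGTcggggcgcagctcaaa
Hmgcs1, chr13:119690101-119690350, plus strand: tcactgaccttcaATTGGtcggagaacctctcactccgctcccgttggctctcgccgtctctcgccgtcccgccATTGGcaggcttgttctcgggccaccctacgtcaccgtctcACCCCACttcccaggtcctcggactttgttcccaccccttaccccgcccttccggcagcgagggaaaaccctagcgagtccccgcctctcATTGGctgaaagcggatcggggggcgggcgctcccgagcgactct
Insig1, chr5:28071162-28071411, plus strand: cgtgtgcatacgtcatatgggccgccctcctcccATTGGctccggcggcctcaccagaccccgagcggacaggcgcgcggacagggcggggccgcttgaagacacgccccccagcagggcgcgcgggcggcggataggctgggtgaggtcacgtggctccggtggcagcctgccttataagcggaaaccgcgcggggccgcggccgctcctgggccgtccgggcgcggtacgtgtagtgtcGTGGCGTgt

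The first base of the sterol core lay 236 bases before the RefSeq start in Nsdhl, 180 and 53 in Acat2, 106 in Cyp51, 23 in Srebf2, 135 in Hmgcs1 and 9 in Insig1. The GENCODE bounds of Srebf2 and Insig1 begin upstream of these RefSeq starts, at 82147181 and 28071363. For both, the core lay inside the gene as annotated there. Promoter windows were at hand for 22 of the 28 genes, with 28 starts in all, since some genes have several. Acat1, Fdps, Fdft1, Sqle, Npc1 and Stard4 had none. The core occurred in 7 of the 22 genes (31.8%), against 15.8% of the 9786 tested genes with a window and 14.4% of all 27025 genes in the table. The genes with the core were the 6 shown, out of 11 called genes with a window, and Insig2, out of 11 genes that were not called. In Insig2 it was in 1 of 3 windows. The NF-Y box was in 20 of the 22 genes (90.9%), at 10 of 11 called and 10 of 11 not called, against 40.9% of tested genes. The Sp1 box GGGCGG, another motif common in these promoters, was in 19 of the 22 (86.4%), against 64.8% of tested genes. It is not capitalised here, and overlap of its matches with the other motifs was not removed. A match of letters does not show that a factor binds, and genes with more listed starts have more chances of a match.

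At the entry to the pathway the cytosolic thiolase passed the test and the mitochondrial thiolase did not. Acat2 encodes the cytosolic thiolase that makes acetoacetyl-CoA for sterol synthesis, and not the sterol-esterifying enzyme that is also abbreviated ACAT. Its level was 86.7 and 84.5 CPM in the controls and 69.2 and 68.0 CPM in the EM-plasma libraries (log2 fold change -0.32, SE 0.055, adjusted p = 0.000351). Acat1, the mitochondrial thiolase of ketone body and isoleucine metabolism, was at 190 and 194 CPM in the controls and 181 and 176 CPM after treatment (log2 fold change -0.11, 95% interval -0.20 to -0.010, adjusted p = 0.195). The groups did not overlap for either gene. The ratio of Acat2 to Acat1 reads, which is free of library scaling, was 0.457 and 0.435 in the controls and 0.383 and 0.386 in treated cells. Both treated ratios lay below both control ratios. An exact permutation test of this ratio gave p = 0.333 (two-sided), the smallest that 2 libraries against 2 can give. It therefore cannot decide whether the thiolases differed in size of change. Of the distinct stretches of 50 bases in Acat2 transcripts, 39.1% occur also in its near copy Acat3, and how reads that fit both were counted is not given in the sources used here. Acat3 itself held 2 to 10 reads per library.

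Along the mevalonate and isoprenoid steps 2 of 7 genes fell, and the log2 fold changes of all 7 lay between -0.28 and -0.15. Hmgcs1, the cytosolic HMG-CoA synthase, was at 156 and 166 CPM in controls and 141 and 144 CPM after EM-plasma (log2 fold change -0.18, SE 0.049, adjusted p = 0.0305). Pmvk, phosphomevalonate kinase, was at 31.0 and 28.7 CPM against 23.9 and 25.1 CPM (log2 fold change -0.28, SE 0.072, adjusted p = 0.0151). For both genes the treated libraries were the lowest. DESeq2 did not call Pmvk (adjusted p = 0.0517).

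The other 5 genes of this segment did not pass the test. Mvk, mevalonate kinase, was at 41.7 and 39.3 CPM in controls and 33.9 and 36.9 CPM with EM-plasma (log2 fold change -0.19, 95% interval -0.33 to -0.057, adjusted p = 0.0825). For Mvd, which decarboxylates mevalonate diphosphate, the interval was -0.27 to -0.024 (adjusted p = 0.156). For Ggps1, which makes the geranylgeranyl group that anchors small GTPases, it was -0.29 to -0.032 (adjusted p = 0.134). In these 3 genes both EM-plasma libraries lay below both controls, as they did for 24.8% of all tested genes. Idi1, the isomerase that balances the isoprenoid building blocks, had 28.2 and 32.9 CPM in controls and 28.4 and 25.7 CPM after treatment, so that EM-plasma 1 lay above control 1 (adjusted p = 0.19). Fdps, farnesyl diphosphate synthase, was at 11.9 and 10.7 CPM against 10.1 and 9.90 CPM (interval -0.39 to 0.034, adjusted p = 0.361). Its groups did not overlap either. Idi1 and Fdps share 25.3% and 26.2% of their distinct stretches of 50 bases with other annotated genes, so their levels are uncertain where reads were split or dropped.

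From squalene synthase to cholesterol 7 of 11 genes fell, and this segment held the largest fall. Nsdhl (chromosome X, 72918557 to 72958514), a dehydrogenase that works with methylsterol oxidase to strip methyl groups from the sterol ring, was at 81.5 and 81.0 CPM in the controls. In EM-plasma 1 and 2 it was at 64.8 and 63.0 CPM (log2 fold change -0.35, SE 0.056, adjusted p = 0.000143). The controls differed from each other by 0.0094 on the log2 scale and the treated libraries by 0.041, so the gap between the groups was much wider than either. Dhcr7, the reductase of the last step of 1 branch to cholesterol, was at 212 and 203 CPM against 174 and 169 CPM (log2 fold change -0.28, SE 0.047, adjusted p = 0.000332).

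Cyp51, the cytochrome P450 that demethylates lanosterol, was at 247 and 264 CPM in the controls and 213 and 219 CPM after EM-plasma (log2 fold change -0.24, adjusted p = 0.00117). Lss, which closes the sterol rings to give lanosterol, was at 161 and 153 CPM against 133 and 132 CPM (log2 fold change -0.24, adjusted p = 0.00218). For Fdft1, squalene synthase, the values were 96.4 and 99.1 CPM against 83.2 and 80.8 CPM (log2 fold change -0.25, adjusted p = 0.00306). In each of these the treated libraries lay close together and below both controls. Msmo1, the methylsterol oxidase, was at 113 and 119 CPM in controls and 101 and 100 CPM in treated cells (log2 fold change -0.21, adjusted p = 0.0141). Sc5d, a sterol desaturase, was at 78.3 and 85.5 CPM against 69.8 and 73.3 CPM (log2 fold change -0.19, adjusted p = 0.0425), and DESeq2 did not call it (adjusted p = 0.0686). The adjusted p of Sc5d was the largest among the 13 called genes. Fdft1 shares 26.5% of its distinct stretches of 50 bases with other annotated genes, 17.2% with the protease gene Ctsb, whose own log2 fold change was 0.06.

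Between these called steps stood 4 genes that did not pass. Sqle encodes squalene epoxidase, an oxygen-dependent and rate-limiting step. Its level was 130 and 134 CPM in controls and 124 and 127 CPM after EM-plasma (log2 fold change -0.072, 95% interval -0.17 to 0.029, adjusted p = 0.458). Hsd17b7, the sterol ketone reductase that follows Nsdhl, was at 33.5 and 31.0 CPM against 30.1 and 32.9 CPM (interval -0.18 to 0.11, adjusted p = 0.849), and its groups overlapped. Ebp, the sterol isomerase, was at 68.8 and 70.5 CPM against 64.7 and 64.9 CPM (interval -0.22 to 0.012, adjusted p = 0.326). Tm7sf2, a sterol reductase, was low at 7.96 and 7.05 CPM against 6.09 and 7.07 CPM (interval -0.45 to 0.071, adjusted p = 0.445). The groups of Tm7sf2 overlapped, while those of Sqle and Ebp did not. For Tm7sf2 the interval is wide enough to hold both no change and the fall seen in Nsdhl. That of Sqle ends short of the estimates for Lss and Cyp51, but the difference between genes was not tested.

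**Figure D2:**
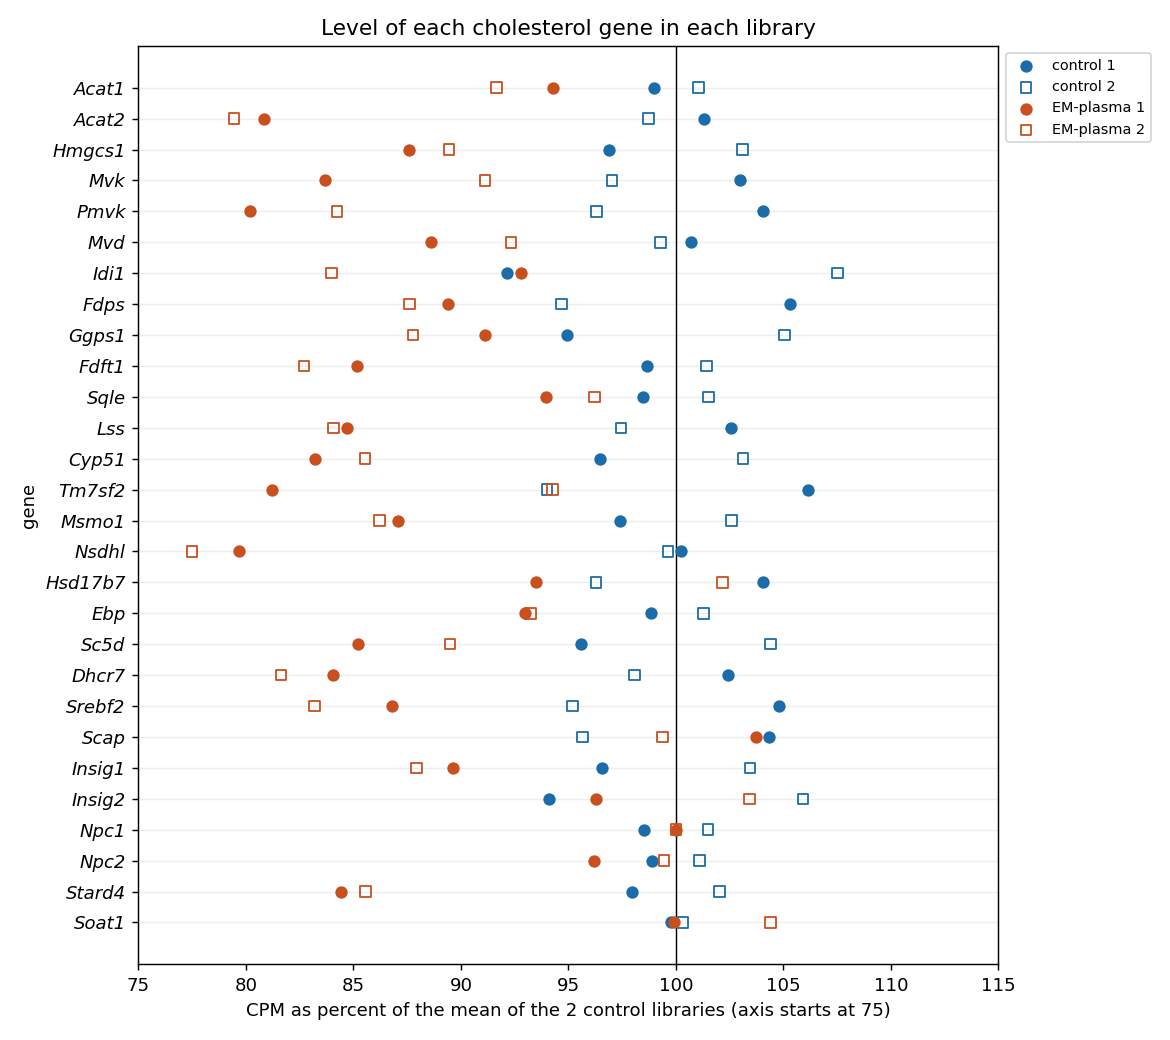
CPM of each gene in each library as a percent of the mean of the 2 controls, with circles for replicate 1 and squares for replicate 2. For the 13 called genes both EM-plasma libraries (orange) lie left of both controls (blue). The colours mix for the enzymes Idi1, Tm7sf2 and Hsd17b7 and for Scap, Insig2, Npc1, Npc2 and Soat1.

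Among the regulators Srebf2 and Insig1 fell, while Scap and Insig2 did not pass. Srebf2 was at 349 and 317 CPM in controls and 289 and 277 CPM after treatment (log2 fold change -0.23, SE 0.047, adjusted p = 0.00217). Insig1 was at 168 and 180 CPM against 156 and 153 CPM (log2 fold change -0.17, SE 0.049, adjusted p = 0.0316). Both treated libraries were below both controls in each, although the 2 controls of Srebf2 differed by 0.14 on the log2 scale. Insig2 was at 60.6 and 68.2 CPM against 62.0 and 66.6 CPM (log2 fold change -0.0013, interval -0.13 to 0.13, adjusted p = 0.996). Scap was at 168 and 154 CPM against 167 and 160 CPM (log2 fold change 0.023, interval -0.081 to 0.13, adjusted p = 0.857). The groups of Insig2 and Scap overlapped. Scap shares 749 of its 7521 distinct stretches of 50 bases with an unclassified transcript, which held 0 reads in every library.

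Of the genes that move and store sterol, Stard4 alone passed the test. Stard4 encodes a soluble carrier that transfers cholesterol between membranes. It was at 86.8 and 90.4 CPM in controls and 74.8 and 75.8 CPM after EM-plasma (log2 fold change -0.23, SE 0.055, adjusted p = 0.00791). Npc1 and Npc2 export cholesterol taken up with lipoprotein from the lysosome. Npc1 was at 198 and 204 CPM in controls and 201 CPM in both treated libraries (log2 fold change -0.0015, interval -0.096 to 0.093, adjusted p = 0.992). Npc2 was at 181 and 185 CPM against 176 and 182 CPM (interval -0.13 to 0.062, adjusted p = 0.751). Soat1, the enzyme that esterifies cholesterol for storage, was at 90.6 and 91.1 CPM against 90.7 and 94.8 CPM (interval -0.079 to 0.14, adjusted p = 0.816). The intervals of Npc1, Npc2 and Soat1 each hold 0, and their lower bounds lie above the estimate for Stard4. The interval of Stard4 itself, -0.35 to -0.12, overlaps that of Npc2, and the difference between genes was not tested.

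Expressed per kilobase of exon (RPKM, computed from the same CPM and the union of annotated exons), the most abundant of the 28 transcripts in controls were Cyp51 at 57.9 ± 2.72, Insig1 at 56.2 ± 2.56, Acat1 at 51.1 ± 0.836 and Srebf2 at 46.4 ± 3.13 RPKM (SD, n = 2). Cyp51 and Insig1 differed by less than their SDs. Dhcr7 followed at 35.7 ± 1.18 and Hmgcs1 at 35.0 ± 1.63 RPKM, which also did not differ beyond their SDs. At the lower end were Tm7sf2 at 1.70 ± 0.147, Fdps at 2.69 ± 0.199 and Hsd17b7 at 6.31 ± 0.345 RPKM. After EM-plasma Insig1 and Cyp51 stood at 49.9 ± 0.745 and 48.9 ± 0.972 RPKM and Acat1 at 47.5 ± 0.804 RPKM. Levels of Fdps and Idi1 carry the doubt over shared sequence given above. Tm7sf2 shares 9.9% of its distinct stretches of 50 bases with another annotated gene.

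Leaving out a library ended many calls but moved the estimates less. When control 1 was left out, 10 of the 13 called genes still passed, beside 2.04% of all genes called lower. When control 2 was left out, 1 passed (0.162% of all genes). Leaving out EM-plasma 1 kept 4 (0.746% of all genes), and leaving out EM-plasma 2 kept 1 (0.638% of all genes). Calls were thus fewer over all genes as well as over these. No additional gene of the 28 was called in them. Each such fit leaves 1 group with a single library, which is assumed to vary like the other group's 2 libraries. The total degrees of freedom were 5.71 and 5.27 without control 1 and 2 but 14100 without either EM-plasma library, so numbers of calls are not comparable between the fits. Nsdhl and Dhcr7 passed in 3 of these 4 fits, Acat2 in 2, 8 genes in 1, and Pmvk and Sc5d in 0. The call of Nsdhl ended without control 2 (adjusted p = 0.0669), and that of Dhcr7 without EM-plasma 2 (adjusted p = 0.0983).

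Over the 4 fits the log2 fold changes of the 13 called genes stayed between -0.37 and -0.12. The estimate for Nsdhl ran from -0.37 to -0.33, for Acat2 from -0.34 to -0.30 and for Dhcr7 from -0.31 to -0.25. Wider ranges included those of Srebf2, from -0.30 to -0.17, Sc5d, from -0.26 to -0.13, Cyp51, from -0.30 to -0.19, and Hmgcs1, from -0.23 to -0.12. Without control 2 the estimates of Sc5d, Hmgcs1 and Insig1 stood at -0.13, -0.12 and -0.12. With no filter on low counts edgeR called 0 of the 28 genes, and 16 were lower at an unadjusted p below 0.05, where 5.18% of all genes in that fit were. The median of the 13 genes was -0.24 there.

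**Figure D3:**
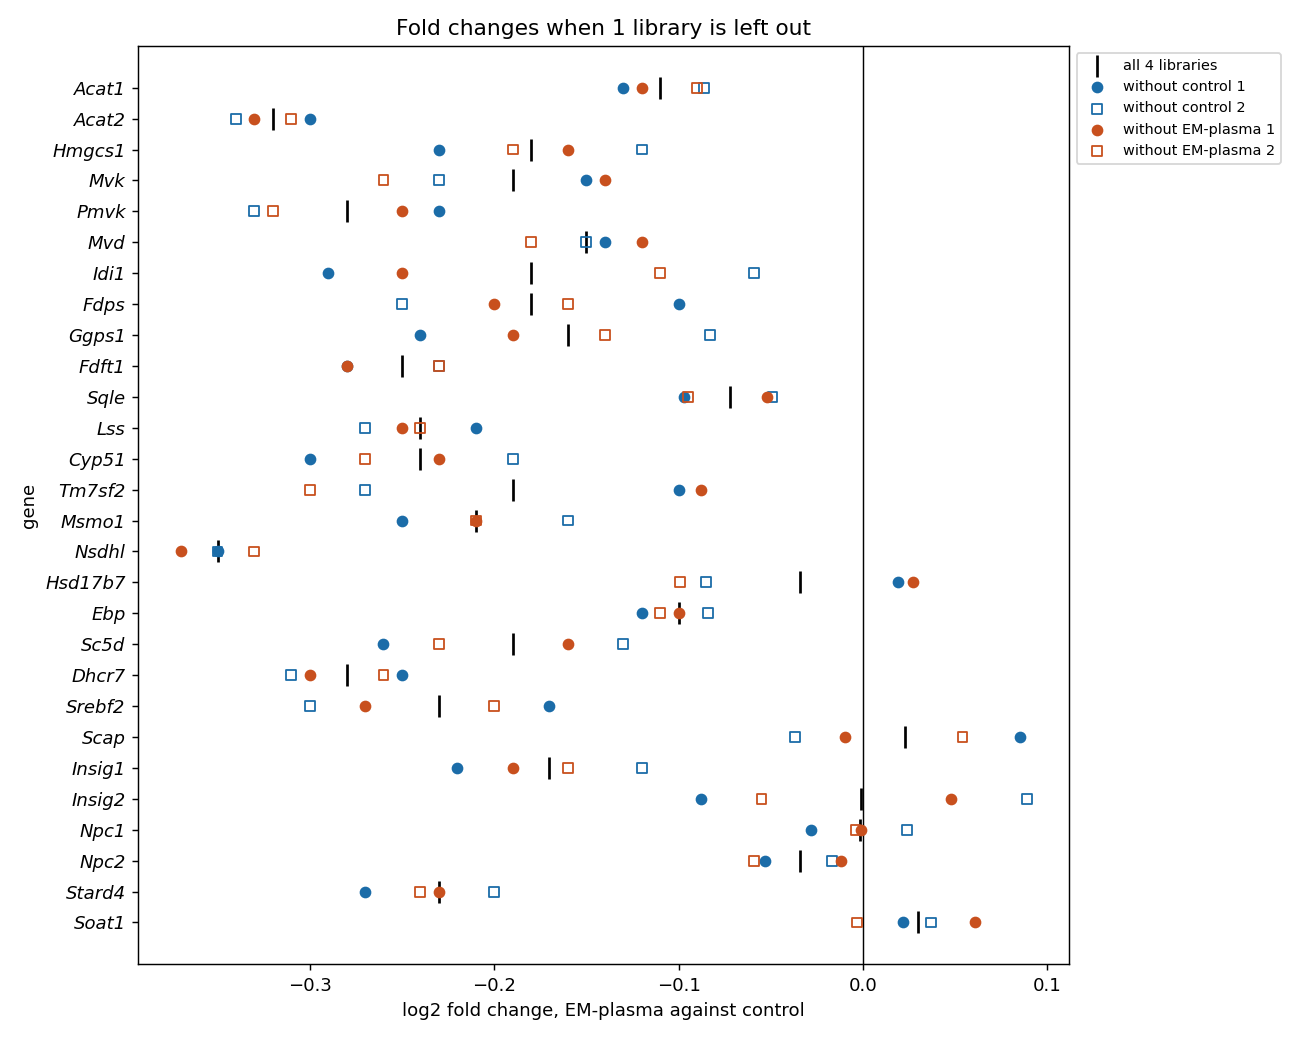
Log2 fold change of each gene with all 4 libraries (black bars) and with 1 library left out (symbols). The 13 called genes stay between -0.37 and -0.12 in each fit, and Scap, Insig2, Npc1, Hsd17b7 and Soat1 fall on either side of 0.

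The surrounding pathway was read from 6 lists of 76 other sterol and lipid genes, of which 72 were tested, 14 fell and 1 rose. Among all tested genes 2.88% were called lower and 3.34% higher. DESeq2 called 12 lower and 0 higher. The fatty acid arm and the list around the sterol receptor LXR held 7 and 4 of these falls. In the list of acetyl-CoA supply and fatty acid synthesis 7 of 15 fell and 0 rose, with a median of -0.18. Scd1 and Scd2, desaturases that make monounsaturated fatty acids, and Fads2, the desaturase that starts polyunsaturated fatty acid synthesis, led that list with log2 fold changes of -0.39, -0.26 and -0.31. Fads2 was at 236 and 234 CPM in controls and 188 and 193 CPM after treatment (adjusted p = 5.16e-05), and it passed in all 4 fits without a library. Fasn, fatty acid synthase, named after its values were seen, was at 1477.4 and 1335.6 CPM against 1433.5 and 1416.3 CPM (adjusted p = 0.861).

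Of 6 tested genes of LXR and efflux 4 fell, with a median of -0.20. Mylip, which degrades lipoprotein receptors, Abca1, the cholesterol exporter, and Pltp, the phospholipid transfer protein, had log2 fold changes of -0.64, -0.36 and -0.25. DESeq2 did not call Pltp (adjusted p = 0.0855), which passed in 0 of the 4 fits without a library and stood at -0.13 without control 1 and at -0.37 without control 2. Among 10 partners of SREBP processing and turnover 1 fell. This was Srebf1, the gene of the fatty acid regulator SREBP1, at 295 and 260 CPM against 246 and 234 CPM (log2 fold change -0.21, adjusted p = 0.0116). It passed in 0 of the 4 fits without a library (adjusted p between 0.0763 and 0.395), with an estimate of -0.12 without control 1.

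Of 9 tested partners of the sterol enzymes 1 fell, Cyb5b, the cytochrome b5 of the mitochondrial outer membrane, at 511 and 533 CPM against 449 and 459 CPM (log2 fold change -0.20, adjusted p = 0.00275). Of 18 tested genes of sterol uptake, transport and storage 1 fell and 1 rose, where 2.88% of all tested genes were called lower and 3.34% higher. Single calls in lists of 9 to 18 genes are too few to set apart from those shares. Lrp1, a broad endocytic receptor, was at 166 and 138 CPM against 129 and 128 CPM (log2 fold change -0.24, adjusted p = 0.0129). Its controls lay far apart, and the estimate was -0.11 without control 1 (adjusted p = 0.126) and -0.36 without control 2 (adjusted p = 0.0336). Lrp8, a lipoprotein receptor for reelin and apolipoprotein E, was at 104 and 98.6 CPM against 121 and 111 CPM (log2 fold change 0.19, adjusted p = 0.0316). DESeq2 called neither (adjusted p = 0.359 for Lrp1 and 0.0556 for Lrp8). The isoprenoid branch beyond the sterol enzymes supplies prenyl groups, dolichol and ubiquinone. Of its 14 genes 0 passed in DESeq2 or in edgeR fitted on group alone with TMM scaling. At an unadjusted p below 0.05 there was 1, against the 9.84% and 9.70% of all tested genes lower and higher at that threshold. This was Rabggta, which was higher (log2 fold change 0.31, adjusted p = 0.0506 in edgeR). Its adjusted p in edgeR was 0.0449 with RLE scaling and 0.00583 with a replicate block. The median of the branch was -0.016. Nus1, a dolichol synthesis subunit and the most abundant of the 14 genes, was at 193 and 205 CPM against 208 and 216 CPM (adjusted p = 0.268).

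**Figure D4:**
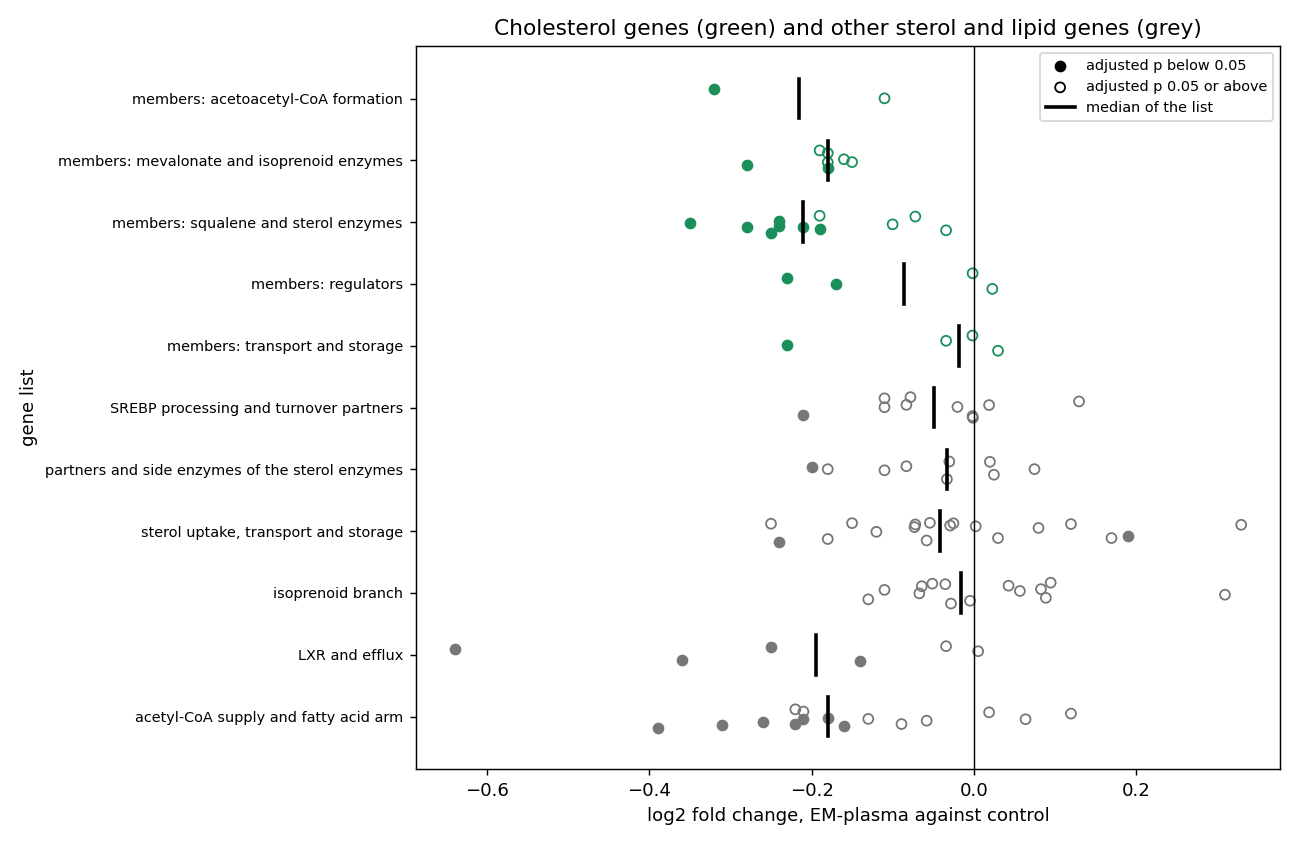
Log2 fold changes of the 28 cholesterol genes by role (green) and of the 72 tested genes of 6 other lists (grey), with the median of each list as a black bar and filled points for genes that passed the test. The medians of the enzyme groups, of the LXR list and of the fatty acid list lie between -0.21 and -0.18, and those of the other lists lie closer to 0.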

How the data were processed

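The 4 libraries were grouped by their titles. GRCm38 is the build named per the submitters' processing notes, which also list TopHat2 2.1.1, HTSeq, CASAVA and edgeR without saying what each was used for. The read counts deposited by the authors are whole numbers per Ensembl gene, with replicates not pooled. Whether counting used strand, and on which annotation release, is not given in the sources used here. Total counts per library were 49367932, 47664388, 46295133 and 46557637. Intervals reflect counting error and variation among these libraries.

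From these counts, low genes were removed with edgeR's filterByExpr (version 4.0.16, R 4.3.3), TMM scaling was applied, and the quasi-likelihood F test with its legacy dispersion was fitted on group alone (two-sided, Benjamini-Hochberg over 13664 genes, called below 0.05). Each standard error is the size of the log2 fold change over the square root of F. Total degrees of freedom were 27.5, and the biological coefficient of variation was 4%. Symbols and exon lengths came from GENCODE M21 on GRCm38, and promoter windows from RefSeq. The test was checked on simulated data. Replicate counts differed beyond sampling noise (chi-square per degree of freedom 8.12 for controls and 2.94 for EM-plasma).

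All 28 genes are named. From each other list the text names called genes, up to 3 per direction by smallest adjusted p, or the most abundant gene where none was called. Fasn, Rabggta, Ctsb and Acat3 are named outside this rule. Genes, lists and motifs were chosen with earlier results of these data known. DESeq2 1.42.0, RLE scaling, no filter, a newer dispersion, a replicate block and leaving out each library were tried. Scaled values deposited per library were not used.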

Additional observations from a re-analysis of the deposited data

How the results depend on the processing

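RLE scaling and the newer dispersion kept all 13 calls, DESeq2 kept 11 and the replicate block kept 13. The fit with the replicate block called 15 of the 28 genes lower, 20 other sterol genes lower and 3 higher, and 851 genes lower and 832 higher in all. The replicate numbers are not stated to pair libraries, and the deviations of same-numbered libraries had a correlation of 0.0393 across genes. No filter on low counts left 0 of the 28 genes called lower, 1 other sterol gene lower and 0 higher, and 1 gene lower and 13 higher in all; the cause was not tested. Other sterol genes called higher numbered 2 with RLE scaling and 0 with DESeq2, and DESeq2 called 243 genes higher in all. Leaving out 1 library gave 1 to 10 of the 28 genes lower, 4 to 7 other sterol genes lower and 0 to 1 higher, and 23 to 289 genes lower and 48 to 258 higher in all. These fits have fewer samples, and their coefficient of variation was 2.44% without a control and 5.01% without an EM-plasma library. The log2 fold changes that crossed 0 were of genes that were not called. With RLE scaling they were Insig2 (0.00049) and Npc1 (0.00033). With 1 library left out Insig2 ran from -0.088 to 0.089, Npc1 from -0.028 to 0.024, Scap from -0.037 to 0.085, Hsd17b7 from -0.099 to 0.027 and Soat1 from -0.0033 to 0.061. Of the 28 log2 fold changes 24 to 27 were below 0 under the alternatives run. Depth and 2 libraries per group gave a median standard error of 0.0698 (log2) over all tested genes.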
